A study of Mus musculus with 2 samples.

Results

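The genes described here are the 10 regulators of the antioxidant and heme-responsive transcription system: Bach1 and Bach2, Nfe2l1 and Nfe2l2 (which encode NRF1 and NRF2), the small MAF genes Maff, Mafg and Mafk, and Keap1, Cul3 and Sqstm1. They are listed by gene name and not by a threshold on measured values, though earlier results of these data were known when they were chosen, and all 10 were found among the 22838 genes of the deposited table. The study measured mRNA in NIH3T3 cells, an established mouse fibroblast line. There was 1 library from untreated cells, and 1 from cells that received 100 µM ALA for 16 h. ALA is not spelled out in the labels, and the abbreviation is commonly used for δ-aminolevulinic acid, from which cells make heme. The series title names SRRD, a heme-dependent protein, and the comparison of treated with untreated cells bears here on the transcripts of the heme-sensing regulators.

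BACH1 and BACH2 are repressors, and NRF1 and NRF2 activators, of the CNC family of basic leucine zipper proteins. Each binds DNA as a heterodimer with a small MAF protein, at the antioxidant response element. Heme binds BACH1, releases it from DNA and leads to its export and degradation, and the heme oxygenase gene Hmox1 is its best known target. KEAP1 is the substrate adaptor of the CUL3 ubiquitin ligase that keeps NRF2 low, and the autophagy receptor p62, encoded by Sqstm1, sequesters KEAP1. Much of this control acts on the proteins, which were not measured here.

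Of the 10 regulators, Maff alone differed by more than 1.5-fold between the libraries, and it was 3.31-fold lower with ALA. Mafk was 1.41-fold higher and all other regulators differed by less than 1.2-fold. Their established target Hmox1 was 2.09-fold higher, and 10 of 12 core NRF2 and BACH1 target genes were higher with ALA, against 47.8% of all measured genes. When both libraries were scaled to the same summed FPKM, called equal library totals here, 12 of 12 were higher, against 56.9%. In a second list of other targets 14 of 28 were higher and 14 lower, and 20 were higher under equal library totals. Both lists were chosen with earlier results of these data known. Values are FPKM as deposited, fragments per kilobase of transcript scaled to the size of a library. How that size was set was not given. A fold is the plain ratio of 2 FPKM values, and a log2 ratio is log2((ALA FPKM + 1)/(untreated FPKM + 1)). Counts of genes at 1.5-fold or 2-fold are taken on this log2 scale, on which low genes differ by less than their plain fold. With 1 library per group there is no replicate error, so differences have no replicate check and no test was made. In bulk RNA, a lower value from fewer cells of a type and from less RNA per cell cannot be told apart.

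The spacing of the low FPKM values gave an estimated depth, which takes FPKM as scaled to mapped reads. It was 22300000 reads in the untreated and 31600000 reads in the ALA library. Approximate 95% counting intervals from it cover counting error only and do not cover variation between cultures. Reads were taken over the longest transcript of a gene, so the intervals may be too narrow. A mean of at least 1 FPKM over both libraries was reached by 10929 genes, called measured, and by 9 regulators. The exception was Bach2. The median log2 ratio of measured genes was -0.02, with an interquartile range of -0.24 to 0.20. At 1.5-fold or more 5.9% were higher and 7.16% lower (13.1% together), and at 2-fold or more 1.49% were higher and 2.01% lower (3.5% together). The 1.5-fold calls were 645 higher and 782 lower as deposited. They were 845 higher and 632 lower with equal library totals, which equalise summed FPKM (540963 untreated and 512324 with ALA) and not reads.

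All 10 fibroblast markers were measured, with summed levels of 13363 FPKM untreated and 11658 FPKM with ALA, and S100a4 was the highest at 4976 and 4717 FPKM. Of these markers 9 were lower and 1 higher with ALA, with a median log2 ratio of -0.26, while 52.2% of all measured genes were lower. Thy1, at 60.2 and 38.8 FPKM (-0.62), and Pdgfra, at 57.6 and 36.6 FPKM (-0.64), were at least 1.5-fold lower. Macrophage and blood cell markers summed to 29.9 and 18.02 FPKM over 7 of 8 genes, led by Lyz2 at 15.2 and 9.59 FPKM. Cd14 was 13.1 FPKM untreated and 4.69 FPKM with ALA (-1.31). The other 5 macrophage and blood cell genes were higher with ALA, with none above the 1.42 FPKM of Aif1. Epithelial markers summed to 85.4 and 114.7 FPKM, nearly all from Krt14 at 84.2 and 113.7 FPKM, while Epcam, Krt18 and Cldn4 were listed at 0 in both libraries. Endothelial markers summed to 0.379 and 0.894 FPKM, erythroid markers to 2.503 and 1.84 FPKM and muscle markers to 2.57 and 1.14 FPKM. In these 3 lists Kdr, the erythroid genes Alas2 and Klf1, and the muscle factors Myod1 and Myog were listed at 0 in both libraries. By the mean of both libraries the highest were Pecam1, Epor and Des. The part of these markers in the values below was not tested.

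**Figure D1:**
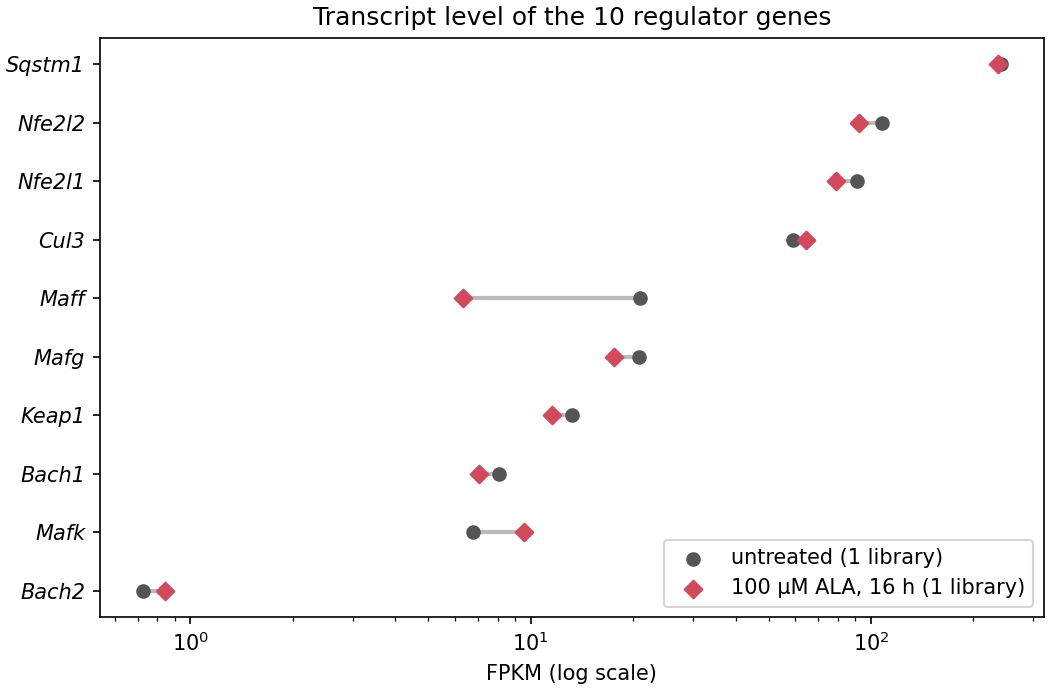
FPKM (log scale) of the 10 regulator genes in the untreated library (grey circles) and the ALA library (red diamonds), ordered by the untreated level. The pair of points is widest for Maff, at 20.9 and 6.32 FPKM, and Mafk is the next widest, at 6.79 and 9.57 FPKM.

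In untreated cells the levels ran from 241 FPKM for Sqstm1 to 0.725 FPKM for Bach2. Nfe2l2, Nfe2l1 and Cul3 followed Sqstm1, then Maff and Mafg, Keap1, Bach1 and Mafk. Maff at 20.9 FPKM and Mafg at 20.8 FPKM were the single pair of neighbours in that order whose counting intervals overlapped. With ALA the 4 highest genes kept their order and Mafg, Keap1, Mafk and Bach1 came next. Maff, at 6.32 FPKM, was then in place 9 and overlapped the interval of Bach1, at 7.03 FPKM. Bach2 was lowest in both libraries.

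The small MAF proteins MAFF, MAFG and MAFK lack a transactivation domain, so that their dimers activate when the partner is an activator and repress when it is not or when they pair with each other. Maff was at 20.9 FPKM in untreated cells and at 6.32 FPKM with ALA, which is about 914 and 391 reads. The log2 ratio was -1.58, with a counting interval of -1.73 to -1.43. Maff was in place 43 from the lowest log2 ratio among the 10929 measured genes. Among the 4643 measured genes whose mean FPKM was within 2-fold of its own, 8 were as low or lower, Maff included. In the GENCODE annotation of GRCm38 Maff lies on the plus strand at chr15:79346621-79359076, shares no exon base with another gene and no stretch of 41 bases, the read length, with another transcript.

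Mafk was 6.79 FPKM untreated and 9.57 FPKM with ALA, or about 469 and 936 reads. The log2 ratio was 0.44, with a counting interval of 0.30 to 0.58. This is past the counting error and short of the 1.5-fold threshold, and 507 of 4246 measured genes of like level were as high or higher. Mafk lies on the plus strand at chr5:139791513-139802653 and shares 169 exon bases, or 4.33% of its exon sequence, with Tmem184a on the opposite strand. Tmem184a was 9.47 FPKM untreated and 7.73 FPKM with ALA, the opposite direction to Mafk.

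Mafg, which in mouse is itself a target of NRF2, was 20.8 FPKM untreated and 17.6 FPKM with ALA. Its log2 ratio of -0.22 (counting interval -0.30 to -0.15) was within the interquartile range of measured genes. Mafg lies on the minus strand at chr11:120625117-120633600, and 124 of its exon bases are also part of Sirt7, which was 7.74 and 9.78 FPKM. The 3 small MAF genes thus stood in 3 different positions: far below, near and above the median of all measured genes.

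Summed over the 3 genes, small MAF transcripts were 48.5 FPKM untreated and 33.5 FPKM with ALA, 1.45-fold lower. Maff made up 43.2% of that sum untreated and 18.9% with ALA. Mafg made up 42.8% and 52.6%, and Mafk 14.0% and 28.5%. These shares do not depend on the scaling between libraries, since each is taken within 1 library. The sum of the 4 CNC genes, their dimer partners, was 207 FPKM untreated and 179 FPKM with ALA, or 4.28 and 5.33 times the small MAF sum.

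**Figure D2:**
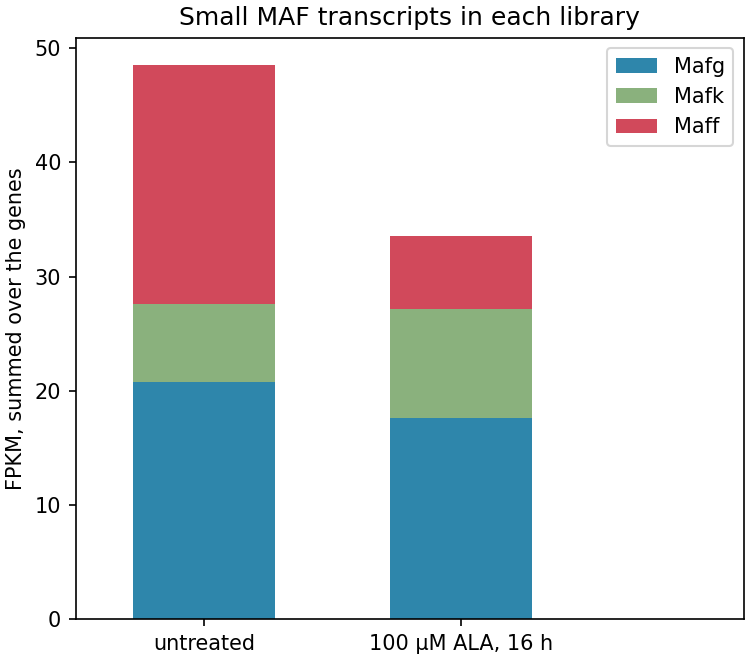
FPKM of Mafg (blue), Mafk (green) and Maff (red) stacked for the untreated and the ALA library, 1 library each. The total goes from 48.5 to 33.5 FPKM, and most of the difference lies in the red part, Maff, which goes from 20.9 to 6.32 FPKM.

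The upstream sequences of Maff are shown because it is the regulator that differed most. Sequences are those of RefSeq on GRCm38.p6, where all 10 regulators and 10 of the 12 core targets matched an entry. Hmox1 and Gclc matched no entry and were not searched. The sequences were searched over the 250 bases before each annotated start. Sites farther away were not searched, so a gene without a match may still hold one. Searched were the core of the antioxidant response element, TGACNNNGC, the AP-1 site TGAGTCA, which is also bound by CNC and small MAF dimers, and the cyclic AMP response element TGACGTCA, all on both strands. The antioxidant response element and the AP-1 site share letters and can overlap. Maff has 3 annotated starts. The window of the first, at chr15:79346371-79346620 on the plus strand, holds 1 antioxidant response element core, in capitals.
Maff first start: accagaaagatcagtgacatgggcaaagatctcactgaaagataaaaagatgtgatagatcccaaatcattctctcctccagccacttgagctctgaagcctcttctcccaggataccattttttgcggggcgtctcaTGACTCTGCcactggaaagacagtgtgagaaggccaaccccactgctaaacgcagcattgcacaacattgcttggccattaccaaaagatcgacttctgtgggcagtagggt
The window of the second start, at chr15:79347270-79347519 on the plus strand, holds 1 cyclic AMP response element, in capitals, which begins 29 bases before the start.
Maff second start: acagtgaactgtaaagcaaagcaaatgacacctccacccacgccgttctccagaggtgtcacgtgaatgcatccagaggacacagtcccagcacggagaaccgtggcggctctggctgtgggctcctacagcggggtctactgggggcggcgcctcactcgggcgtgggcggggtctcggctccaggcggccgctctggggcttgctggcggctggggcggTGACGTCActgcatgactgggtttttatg
The window of the third start held none of these motifs, and the FPKM values are per gene, so they do not say which start was used.

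The same core was found in 4 of the 10 regulators, Maff, Mafg, Mafk and Nfe2l2, and in 3 of the 10 core targets with an entry, Gclm, Txnrd1 and G6pdx. It occurred in 11.5% of all 27025 genes with an entry, and in 10.2% of all 32851 windows. Genes with several starts had more windows to match, such as Nfe2l1 with 5, and Maff and Txnrd1 with 3 each. The sites of the regulators and of Gclm and Txnrd1 are given 5′ to 3′ on the strand of the gene, with the match in capitals, to show that they differ in the 3 free bases and in orientation.
Maff: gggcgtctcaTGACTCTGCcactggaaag
Nfe2l2: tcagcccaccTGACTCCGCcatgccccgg
Mafg: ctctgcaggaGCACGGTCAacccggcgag
Mafk: gatcccggaaGCGGTGTCAgtac
Gclm: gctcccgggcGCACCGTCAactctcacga
Txnrd1: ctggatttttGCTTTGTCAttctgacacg
The Mafk stretch shown and the one around the G6pdx match, which is not shown, overlap an exon of their gene in the GENCODE annotation, although they lie before the RefSeq start. Maff and Nfe2l2 carry the forward form and the other 4 genes shown the reverse form. The AP-1 site was found in none of the 10 regulators and in the core targets Srxn1 and Osgin1, against 5.16% of all genes. The cyclic AMP response element was found in Maff among the regulators and in none of the 10 core targets with an entry, against 1.77% of all genes. These matches are a description of the letters. Genes with the core went both ways: of the 4 regulators Maff, Mafg and Nfe2l2 were lower with ALA and Mafk was higher. The core targets that hold it, Gclm, Txnrd1 and G6pdx, were all higher. Of the searched core targets without it, Nqo1, Srxn1, Slc7a11, Fth1 and Ftl1 were also higher, and Me1 and Osgin1 were lower. A link between the core and the direction was not tested.

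Among the CNC genes, the repressor gene Bach1 was 8.10 FPKM untreated and 7.03 FPKM with ALA, 1.15-fold lower. Its log2 ratio was -0.18, with a counting interval of -0.28 to -0.08. Bach1 lies at chr16:87698945-87733346 and overlaps no other gene's exons. Its transcript was thus slightly lower in the library in which Hmox1 was higher, and the ratio of Hmox1 to Bach1 FPKM was 8.25 untreated and 19.8 with ALA.

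Bach2, the paralog best known for its role in B cells, was 0.725 FPKM untreated and 0.841 FPKM with ALA, about 144 and 236 reads. Its log2 ratio was 0.09 with a counting interval of -0.04 to 0.22, which includes 0. Bach2 lies at chr4:32238804-32586108, and 537 of its exon bases overlap Bach2os on the opposite strand, which was listed at 0 untreated and at 0.348 FPKM with ALA.

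Nfe2l2, which encodes the main activator of antioxidant genes, was 107 FPKM untreated and 92.1 FPKM with ALA. The log2 ratio was -0.22, with a counting interval of -0.27 to -0.17. Nfe2l1 encodes the endoplasmic reticulum-anchored activator of proteasome genes, and was 91.2 FPKM untreated and 78.7 FPKM with ALA. Its log2 ratio was -0.21, with a counting interval of -0.25 to -0.17. Both were lower by 1.17-fold and 1.16-fold, beyond counting error, but 34.2% and 37.1% of measured genes of like level had a log2 ratio farther from 0. Nfe2l2 lies at chr2:75675513-75704641 and Nfe2l1 at chr11:96817414-96829968, and neither shares exon bases with another gene.

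The FPKM of Nfe2l2 relative to its antagonists was nearly equal in the 2 libraries. It was 13.3 times that of Bach1 untreated and 13.1 times with ALA. It was 8.15 times that of Keap1 untreated and 7.96 times with ALA. The ratio of Nfe2l2 to Nfe2l1 was 1.18 and 1.17.

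Keap1 was 13.2 FPKM untreated and 11.6 FPKM with ALA, 1.14-fold lower, with a log2 ratio of -0.18 and a counting interval of -0.28 to -0.07. Cul3, the scaffold of the ligase, was 58.9 FPKM untreated and 64.5 FPKM with ALA, 1.10-fold higher, with a log2 ratio of 0.13 and a counting interval of 0.08 to 0.18. Sqstm1 was 241 FPKM untreated and 237 FPKM with ALA, with a log2 ratio of -0.02 and a counting interval of -0.06 to 0.01. That of Sqstm1 includes 0, and its sign turned to 0.05 under equal library totals. Among the regulators in the table, Cul3 and Mafk were thus the measured genes that were higher with ALA.

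Keap1 lies at chr9:21229730-21239361 on the minus strand and 10.9% of its exon bases are shared with Gm16754 on the opposite strand. Sqstm1 lies at chr11:50199366-50210827 on the minus strand, with 17.3% of its exon bases shared with Mrnip on the opposite strand. Without a strand setting, the reads in these overlaps cannot be assigned to either gene. Cul3, at chr1:80264923-80340480, shares no exon bases.

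**Figure D3:**
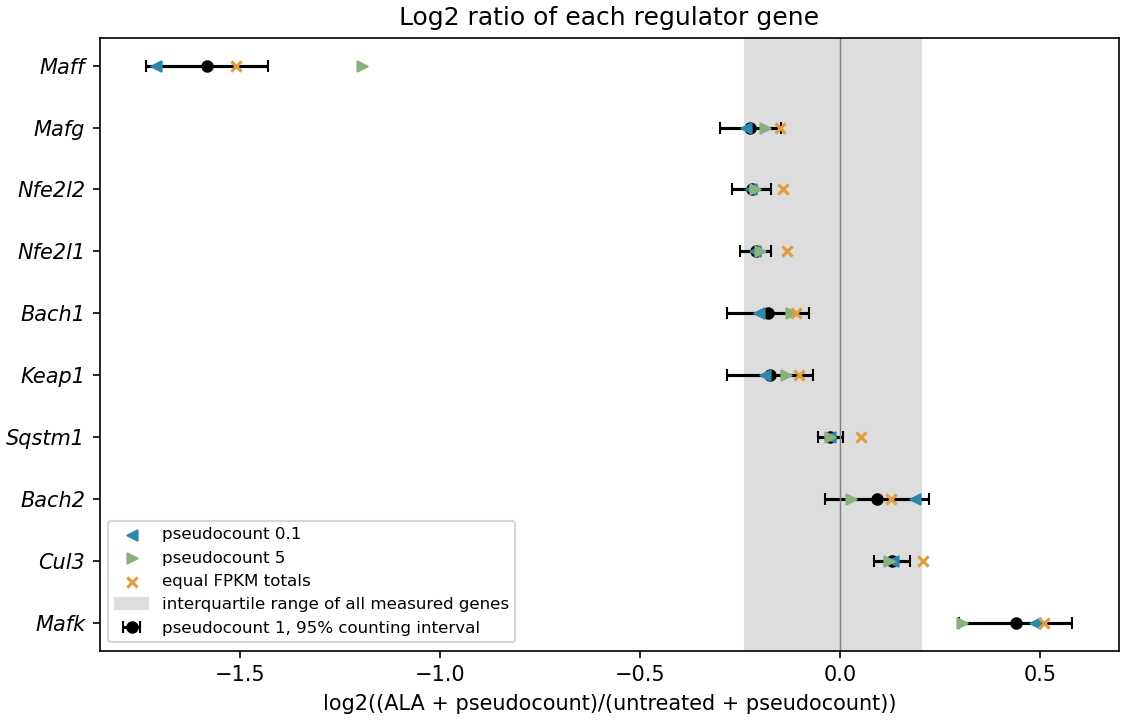
Log2 ratio of ALA to untreated for each regulator, as black points with approximate 95% counting intervals, and as coloured marks under a pseudocount of 0.1, a pseudocount of 5 and equal library totals. The grey band is the interquartile range of measured genes, -0.24 to 0.20. Maff lies far to its left and Mafk to its right under each setting drawn.

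Counted together, 1 of 9 measured regulators was at least 1.5-fold lower and at least 2-fold lower, Maff in both cases, and 0 were that much higher. The background shares of lower genes were 7.16% and 2.01%. At any size 7 of 9 were lower and 2 higher, and with equal library totals 6 were lower and 3 higher, while 52.2% of all measured genes were lower as deposited and 43.1% with equal totals. The median log2 ratio of the 9 was -0.18. Apart from Maff, the 8 others lay between -0.22 and 0.44.

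**Figure D4:**
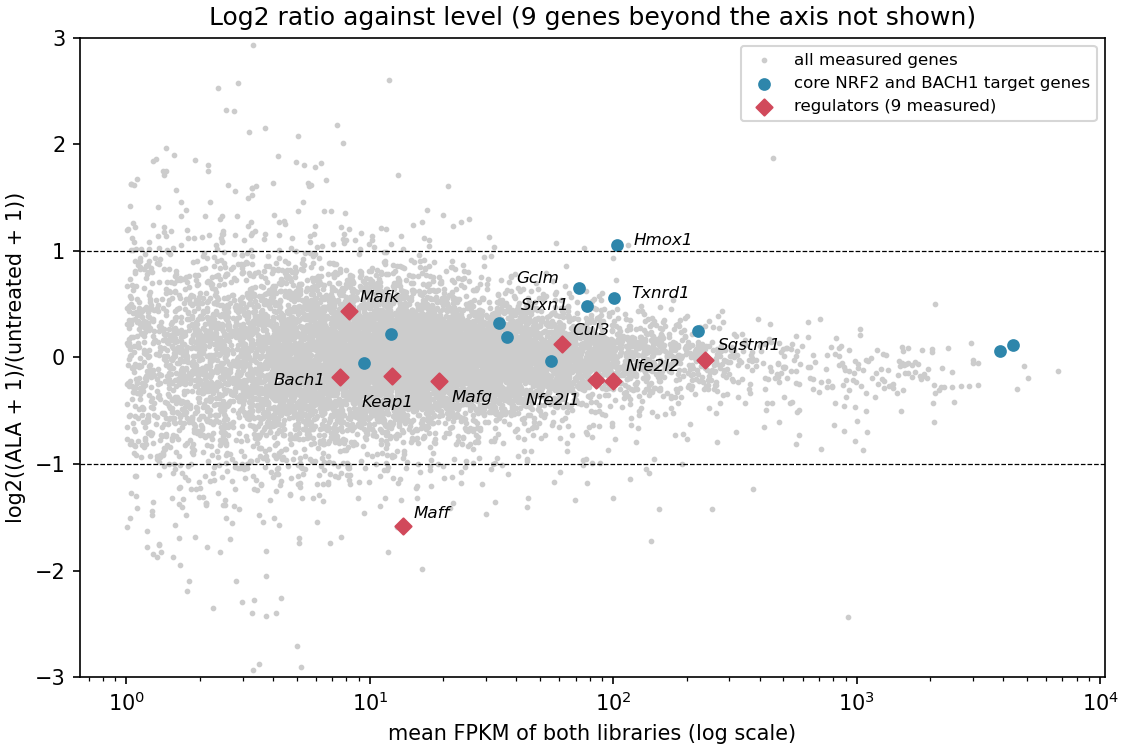
Log2 ratio against mean FPKM (log scale) for all measured genes (grey), the 12 core target genes (blue) and the 9 measured regulators (red diamonds), with dashed lines at 2-fold and 9 genes beyond the axis not drawn. Maff is the regulator below the lower line, Hmox1 is the target above the upper line, and the other genes of both sets lie between.

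The core list of NRF2 and BACH1 target genes holds 12 genes, all measured. Of these, 10 were higher and 2 lower with ALA, against 47.8% of measured genes higher, and with equal library totals 12 were higher, against 56.9%. The median log2 ratio was 0.24, against -0.02 over all measured genes. At 1.5-fold or more 2 of 12 were higher, Hmox1 and Gclm, against a background of 5.9%, and 0 were lower, against 7.16%.

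Hmox1, the gene of the inducible heme oxygenase, was 66.8 FPKM untreated and 139 FPKM with ALA. Its log2 ratio was 1.05 with a counting interval of 0.98 to 1.12. Gclm, the modifier subunit of the first enzyme of glutathione synthesis, was 55.7 and 88.3 FPKM, a log2 ratio of 0.66. Its catalytic partner Gclc was 29.9 and 37.6 FPKM, a log2 ratio of 0.32. The 2 subunits of the same enzyme thus both were higher, the modifier more than the catalytic one.

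Txnrd1, thioredoxin reductase, was 81.4 and 120.35 FPKM, a log2 ratio of 0.56. Srxn1, sulfiredoxin, was 65.1 and 91.4 FPKM (0.48), and Nqo1, the quinone reductase often used as a readout of NRF2, was 203 and 242 FPKM (0.25). These lay above the interquartile range of all measured genes. The cystine transporter gene Slc7a11 went from 11.2 to 13.3 FPKM (0.22) and G6pdx, the first enzyme of the pentose phosphate pathway, from 34.2 to 39.1 FPKM (0.19). G6pdx shares 19.7% of its 41-base stretches with other genes.

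The ferritin genes were by far the most abundant targets. Fth1, the heavy chain, was 4193 FPKM untreated and 4540.1 FPKM with ALA (0.11). Ftl1, the light chain, was 3792 and 3950 FPKM (0.06), but 61.1% of its stretches occur in other transcripts. Malic enzyme Me1, at 55.8 and 54.6 FPKM (-0.03), and the growth inhibitor gene Osgin1, at 9.64 and 9.28 FPKM (-0.05), were near equal in both libraries, and both signs turned with equal library totals. Me1 shares 32.2% of its stretches.

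A second list of 30 other reported targets of the pathway had 28 measured genes, of which 14 were higher and 14 lower, against 47.8% of all measured genes higher, with a median log2 ratio of 0.01. With equal library totals 20 were higher and 8 lower, against 56.9% higher. At 1.5-fold or more 4 were higher, against a background of 5.9%, and 1 was lower, against 7.16%. The iron exporter gene Slc40a1 was 3.13 FPKM untreated and 6.31 FPKM with ALA (0.82). Glutathione synthetase Gss was 14.7 and 26.6 FPKM (0.81), with 15.4% of its exon bases shared with Acss2 and other genes. The microsomal glutathione transferase Mgst1 was 65.7 and 39.4 FPKM (-0.73), and the aldehyde oxidase Aox1 was 6.89 and 4.503 FPKM (-0.52). The difference between this list and the core list was not tested.

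**Figure D5:**
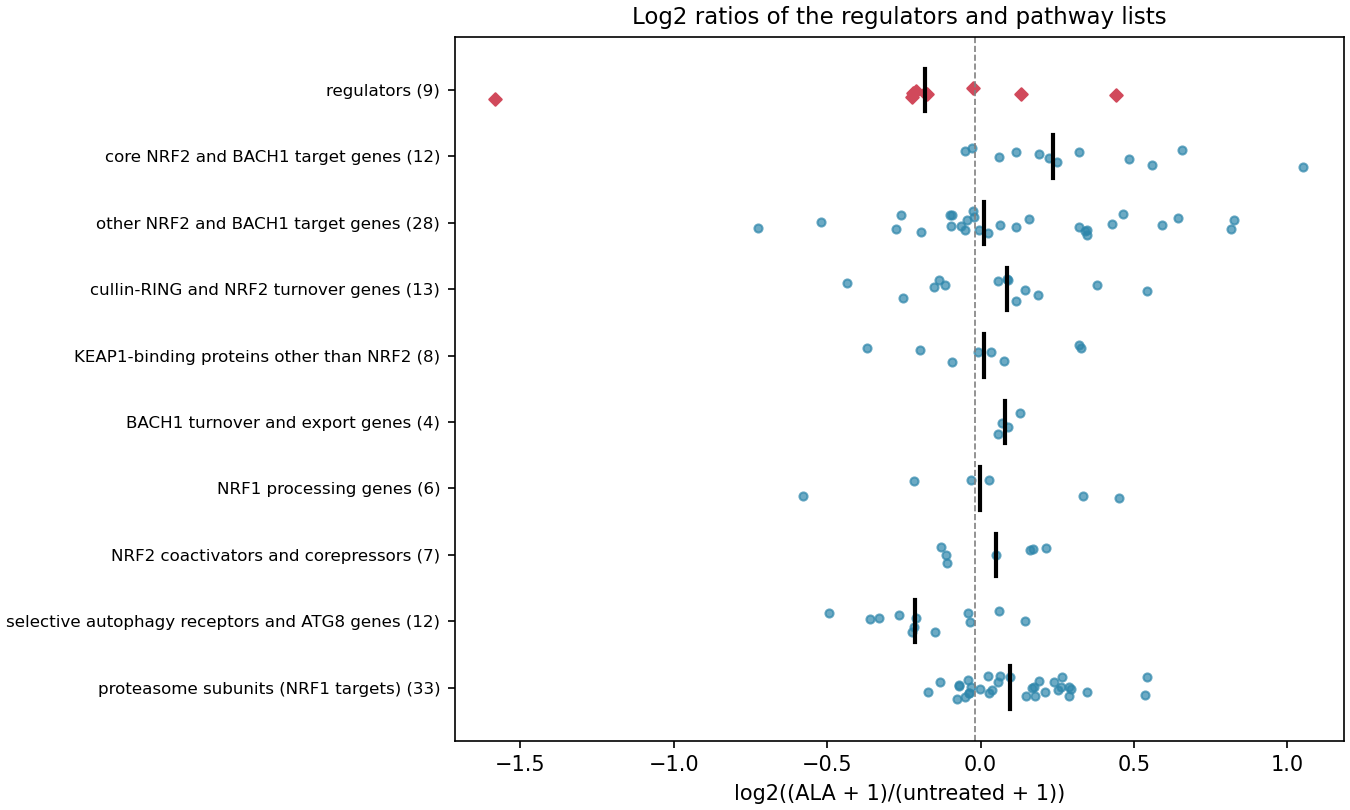
Log2 ratio of each measured gene (points, with vertical jitter) in the regulators (red) and 9 pathway lists (blue), with the number of measured genes in brackets, a black bar at the list median and a dashed line at the median of all measured genes, -0.02. The bar of the core target genes is at 0.24, and the bars of the regulators and of the autophagy list are at -0.18 and -0.21.

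Genes that act on the regulators were all within 1.5-fold between the libraries on the log2 scale, while 13.1% of all measured genes were past it. As plain ratios, Btrc was 1.62-fold higher and Ddi2 1.54-fold lower with ALA. The counts of the lists of such genes stand against 47.8% of all measured genes higher as deposited, and 56.9% with equal library totals. Of the 4 BACH1 turnover and export genes, 4 were higher, with log2 ratios between 0.06 and 0.13. They were Fbxo22, the F-box protein that targets BACH1, at 0.13, the exportin gene Xpo1 at 0.09, Fbxl17 at 0.07 and Hmmr at 0.06. The counting intervals of Fbxo22, Fbxl17 and Hmmr include 0. Fbxo22 shares 15.4% of its exon bases with Nrg4.

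Of 13 cullin-RING and NRF2 turnover genes, 8 were higher and 5 lower, with a median of 0.09 and 0 at 1.5-fold in either direction. Btrc, which encodes the F-box protein of a KEAP1-independent route of NRF2 degradation, was 2.82 FPKM untreated and 4.57 FPKM with ALA (0.54), and the NEDD8-conjugating enzyme Ube2m was at 0.38. The NEDD8-activating subunit Nae1 was 19.9 and 14.5 FPKM (-0.43). Rbx1, the RING partner of CUL3, was 71.3 and 59.6 FPKM (-0.25), so the log2 ratios of Cul3 and Rbx1 had opposite signs.

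Of 8 genes listed for proteins that bind KEAP1 or NRF2, 4 were higher and 4 lower, with a median of 0.01. With equal library totals 5 were higher. Pgam5 was at 0.33, but shares 58.1% of its exon bases with Gm26718 and other genes, and Mcm3 was at 0.32. Cdkn1a, which encodes p21, was 214 FPKM untreated and 166 FPKM with ALA (-0.37), and the DNA repair gene Palb2 was at -0.20. No gene of this list reached 1.5-fold.

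NRF1 is cleaved and released from the endoplasmic reticulum before it acts, and of 6 genes of that route 3 were higher and 3 lower, with 4 higher under equal library totals. Ddi2, the protease that cleaves NRF1, was 17.04 FPKM untreated and 11.1 FPKM with ALA (-0.58). It shares 18.3% of its exon bases with Rsc1a1 and other genes. The deglycosylase gene Ngly1 was at -0.22, the ubiquitin ligase Syvn1 at 0.45 and Vcp, the extracting ATPase, at 0.33, with 44.9% of Vcp stretches in other transcripts. Proteasome subunits, the targets of NRF1, were higher in 22 of 33 cases, against 47.8% of all measured genes, and in 30 of 33 with equal library totals, against 56.9%. Their median log2 ratio was 0.10, or 0.06 without subunits that share 10% or more of their sequence, and 0 reached 1.5-fold. The highest were Psmd6 and Psmc5, both at 0.54, and the lowest Psmb6 at -0.17 and Psmd7 at -0.13.

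A list of selective autophagy receptors and ATG8 genes, which also holds the sestrin genes Sesn1 (-0.22) and Sesn2 (-0.04), was lower in 10 of 12 cases, against 52.2% of all measured genes. With equal library totals 8 of 12 were lower, against 43.1%. The median was -0.21 and 0 reached 1.5-fold. The ATG8 genes Gabarapl1, at 79.1 and 55.9 FPKM (-0.49), and Gabarapl2, at 89.5 and 69.5 FPKM (-0.36), were lowest. For Gabarapl1 28.3% of exon bases, and for Gabarapl2 13.1% of stretches, are shared with other genes. Tollip at 0.14 and Tax1bp1 at 0.06 were higher. Of 7 coactivators and corepressors of NRF2, 4 were higher and 3 lower, with Med16 at 0.21, Smarca4 at 0.17, Ep300 at -0.11 and Rxra at -0.13.

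Of other CNC and MAF family genes, Nfe2, Nfe2l3 and Nrl were listed at 0 in both libraries, Maf was below 0.1 FPKM in both, and Mafa was 1.76 FPKM untreated and 0.689 FPKM with ALA (log2 ratio -0.71). Among the family genes named here, the 2 with the lowest log2 ratios were thus the small MAF gene Maff and the large MAF gene Mafa. The mean of Mafa, 1.22 FPKM, was just over the filter of 1 FPKM. Of measured genes of like level, 24.9% had a log2 ratio farther from 0 than Mafa, against 0.32% for Maff. Genes with a pattern like that of a regulator are not named, because 2 libraries give 1 ratio per gene.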

How the data were processed

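Libraries of NIH3T3 mRNA, 1 untreated and 1 with ALA, were prepared with a TruSeq RNA kit and sequenced to 41-base reads from 1 end on a Genome Analyzer IIx, per the labels' protocols. The deposited values are FPKM per gene, per the file headers. The submitters' processing notes name FastQC 0.11.5, TopHat2 2.1.1, Cufflinks 2.2.1 and build mm10, without roles. The annotation used, the strand setting and the library scaling were not given in the sources used here. The deposited interval bounds were equal in 100% of rows and carried no error.

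Log2 ratios used a pseudocount of 1 FPKM, so ratios of low genes are understated. Calls were counted over genes whose mean reached 1 FPKM. No count model was fitted to FPKM, and 1 library per group allows no test. Depth was fitted on 2194 genes with a single GENCODE vM21 transcript over 1500 bp. It is the depth at which FPKM times length is nearest to whole reads. The best fit scored only 0.231 (untreated) and 0.233 (ALA), where 1 would mean that every value fell on a whole read. The median scores over the depths tried were -0.007 and -0.056. Depths of 21300000 to 22800000 reads (untreated) and 27200000 to 32600000 reads (ALA) scored within 10% of the best fit. Reads per gene use the full length of the longest transcript, which can overstate reads and narrow the intervals. Overlaps and shared 41-base stretches came from GENCODE vM21 (GRCm38, the assembly of mm10). Python 3.11.15, pandas 2.3.3 and NumPy 2.4.6 were used.

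The regulators and lists were chosen with earlier results of these data known. Named genes were all regulators and core targets, up to 2 of the highest and 2 of the lowest log2 ratios of every other pathway list, the highest marker of each marker list, and genes overlapping a regulator. Genes of a list named at 0 or below 0.1 FPKM, markers at 0, and Thy1, Pdgfra, Cd14, Aif1, Sesn1 and Sesn2 were named after their values were seen. Alternatives were pseudocounts of 0.1 and 5, equal library totals, a median ratio of 0 among genes of at least 5 FPKM, no filter, a filter at 5 FPKM, list means, and lists without genes sharing 10% or more. Individual values of some genes on the family and marker lists are not reported here.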

Additional observations from a re-analysis of the deposited data

How the results depend on the processing

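Under pseudocounts of 0.1 and 5 and both other scalings, 9 of 10 regulators kept the sign of their log2 ratio, and Maff was lower by at least 2-fold in each, from -1.71 with a pseudocount of 0.1 to -1.20 with 5. Equal library totals raised log2 ratios by about 0.07 and gave -0.13 for Nfe2l1, -0.14 for Nfe2l2, 0.21 for Cul3 and 0.054 for Sqstm1, the gene whose sign turned. They also gave medians of 0.31 for the core targets, 0.087 for the other targets and 0.17 for proteasome subunits, with 2 of the latter at least 1.5-fold higher, and 4 autophagy genes higher in place of 2. The core target median was 0.32 both as a mean over the list and for members with under 10% shared sequence, and the mean of the other targets was 0.11. Under the same filter on shared sequence, medians were 0.063 for proteasome subunits, 0.01 for the other targets and -0.18 for the autophagy list. Of the other targets 1 was at least 1.5-fold higher with a pseudocount of 5, in place of 4, and 2 were lower with 0.1, in place of 1. Over all genes, counts at 1.5-fold were 194 higher and 299 lower with a pseudocount of 5, and 349 and 447 with a mean of at least 5 FPKM, which leaves fewer genes. Counts at 2-fold were 302 and 389 with a pseudocount of 0.1, 31 and 42 with 5, and 67 and 104 with a mean of at least 5 FPKM. The lowest and highest depth changed intervals and no ratio. No paired analysis was possible because each group has 1 library. Counting error limits Bach2 and Sqstm1, whose intervals include 0, and the spread between cultures is unknown for every gene.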
